A study of Sus scrofa with 6 samples.

Results

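The 8 genes examined here were ACP5, MMP9, ATP6V0D2, DCSTAMP, OCSTAMP, NFATC1, CALCR and OSCAR, a set built around ACP5 from genes that define or build the osteoclast. They were found by gene name, and each name matched 1 of the 30477 genes in the deposited table. The set was chosen by the FPKM difference of ACP5 between the diets, known from these same libraries, so the diet differences of the 8 genes are given as a description, with no test.

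Abdominal aorta was taken from male Wuzhishan miniature pigs fed for 6 months either normal chow (NC group, 3 pigs) or chow enriched in fat, cholesterol and fructose (HFCF group, 3 pigs), and its RNA was sequenced with 1 library per pig. The sample labels give the pigs as 3 to 4 months old, whereas the methods give an older age at purchase. The tissue was the whole vessel wall with its lesions, without sorting of cells. The contractile smooth muscle gene ACTA2 stood between 3359 and 9145 FPKM in the 6 libraries, so each held smooth muscle RNA. This gene alone does not identify the vessel.

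Osteoclasts are multinucleated cells that form by fusion of cells of the monocyte and macrophage lineage and dissolve bone. CSF1 keeps the precursors alive, RANK ligand acts through its receptor RANK, and receptors coupled to ITAM adaptors supply a calcium signal that activates NFATC1, the transcription factor held to control the programme. The mature cell pumps protons through a vacuolar ATPase and secretes proteases and the tartrate-resistant acid phosphatase encoded by ACP5, which in the pig is also known as uteroferrin, an iron-containing protein. Several of these genes are used by macrophages as well, and calcified and lipid-rich arteries hold many macrophages.

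FPKM values, which are fragment numbers scaled to transcript length and to library size, were compared as log2(FPKM + 0.1), a scale that understates the change of genes with low values. Relative depths estimated from the smallest steps between low values were 1.09 and 1.37 in NC pigs 2 and 3 and 1.02 to 1.07 in the HFCF pigs, with NC pig 1 set to 1. The log2 fold change had a median of 0.32 over the 15384 tested genes. HFCF pig 1 stood apart in blood genes, with 2846 FPKM of the haemoglobin gene HBB against 21.3 to 174.5 FPKM in the other 5 pigs, so results are also given without this pig. With 3 pigs against 3, the smallest two-sided p of an exact permutation test is 0.1, and single-gene p-values therefore come from limma fitted to all tested genes. Fewer cells of a type and less RNA per cell cannot be told apart in whole-tissue RNA.

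For 6 of the genes, ACP5, MMP9, ATP6V0D2, DCSTAMP, CALCR and OSCAR, the lowest HFCF pig exceeded the highest NC pig. NFATC1 was the 1 gene with the opposite order, and OCSTAMP overlapped between the groups. Of all tested genes, 36.1% lay higher and 12.1% lower in the HFCF group without overlap. Of the 8 genes, 7 had the mean FPKM of at least 0.1 needed for testing, and DCSTAMP, CALCR and OSCAR reached it through their HFCF values. These counts follow from how the set was chosen and are not evidence about it. The median log2 difference over the 8 genes was 2.60, and it was 2.33 without HFCF pig 1.

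**Figure D1:**
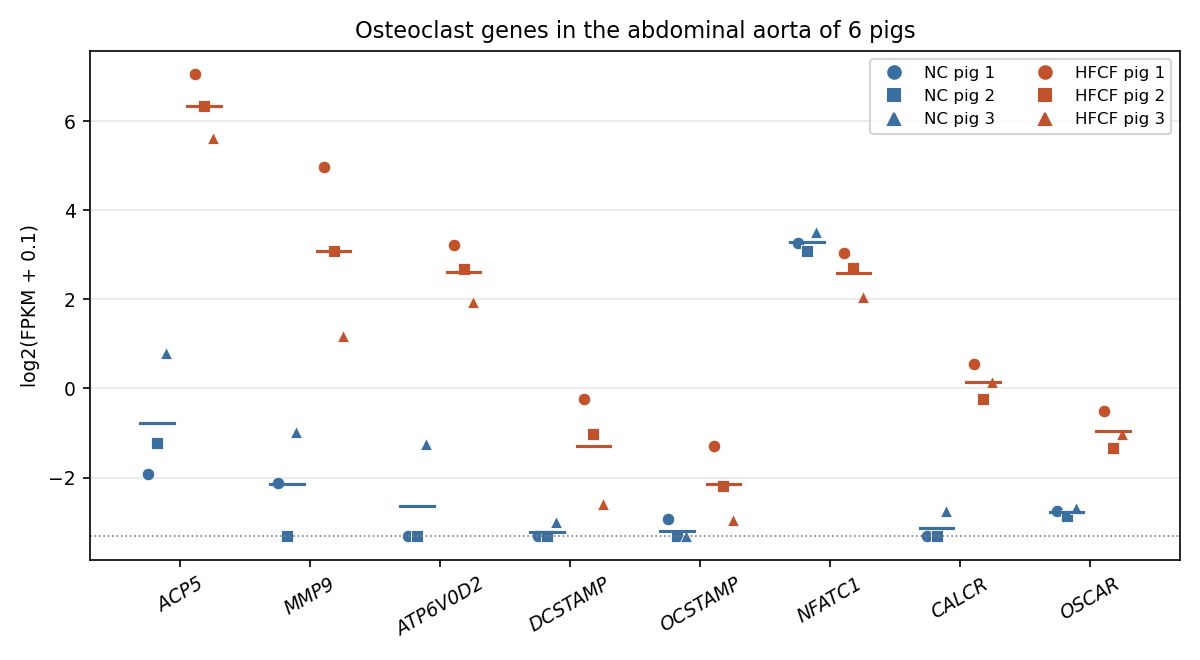
Level of each of the 8 osteoclast genes in each pig, as log2(FPKM + 0.1) on the vertical axis. Each symbol is 1 pig, short bars are group means and the dotted line is the position of a value of 0. ACP5 sits between 49.3 and 133.2 FPKM in the HFCF pigs and at most at 1.63 FPKM in the NC pigs, whereas NFATC1 is the gene of the set that is lower in the HFCF pigs.

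Among the secreted effectors, ACP5 (ENSSSCG00000032282) had the highest level of the set in the HFCF group. It stood at 133.2, 80.7 and 49.3 FPKM in HFCF pigs 1, 2 and 3 and at 0.166, 0.329 and 1.63 FPKM in NC pigs 1, 2 and 3. The group means were 87.7 ± 42.4 and 0.708 ± 0.801 FPKM (SD, n = 3 each), a ratio of 124.0. NC pig 3 was about an order of magnitude above NC pig 1, so even the chow-fed pigs differed among themselves in this phosphatase. The log2 difference was 7.12, it was 6.76 without HFCF pig 1 and 7.91 without NC pig 3. Of the related acid phosphatases, the lysosomal enzyme ACP2 had 6.55 to 10.3 FPKM in the NC pigs and 9.53 to 13.9 FPKM in the HFCF pigs (log2 fold change 0.48, adjusted p = 0.157, limma). For every 100 FPKM of ACP2 there were 2.54 to 15.8 FPKM of ACP5 in the NC pigs and 474.2 to 956.1 FPKM in the HFCF pigs. In the list of 7 other acid phosphatase genes, 5 were tested and ACP4 was the gene called, with a log2 change of 1.03 (adjusted p = 0.0185, limma) and a call lost in 4 of 15 alternatives. That made 20% called, beside 28.9% of all tested genes.

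MMP9 (ENSSSCG00000007436) encodes gelatinase B, a protease that osteoclasts share with macrophages and that neutrophils store in granules. Its levels were 31.1, 8.38 and 2.17 FPKM in HFCF pigs 1, 2 and 3. In the NC pigs it stood at 0.131, 0 and 0.410 FPKM. The groups did not overlap, but the highest HFCF pig had 14.3 times the level of the lowest, the widest spread within the HFCF group among the 8 genes. The log2 difference was 5.21, with 4.27 without HFCF pig 1 and 3.07 with a pseudocount of 1.

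The summed level of neutrophil markers was also highest in HFCF pig 1. It was 100.7 FPKM in that pig, at least 6.63 FPKM in each HFCF pig and 1.68 to 3.07 FPKM in the NC pigs. Of 10 neutrophil markers 8 were found and 5 tested, and the receptor gene CSF3R, which monocytes also express, was the one called (log2 fold change 5.29, adjusted p = 0.00610, limma). That made 20% called, beside 28.9% of all tested genes. CSF3R stood at 55.9, 8.38 and 4.55 FPKM in HFCF pigs 1, 2 and 3. S100A8 was 11.2 FPKM in HFCF pig 1, 0.219 FPKM in HFCF pig 2 and listed at 0 in the other 4 libraries. The granule gene MPO was listed at 0 in every library but HFCF pig 1, where it had 0.0587 FPKM. The elastase gene ELANE went the other way, with 0.714 FPKM in HFCF pig 1, the lowest of the 6 libraries, against 1.71 and 0.97 FPKM in HFCF pigs 2 and 3 and 0.797 to 1.3 FPKM in the NC pigs. For every 100 FPKM of CSF3R there were 78.7, 0 and 108.0 FPKM of MMP9 in NC pigs 1, 2 and 3 and 55.6, 99.9 and 47.6 FPKM in HFCF pigs 1, 2 and 3, so on this scale the groups overlapped. The part of neutrophils in the MMP9 level was not tested.

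**Figure D2:**
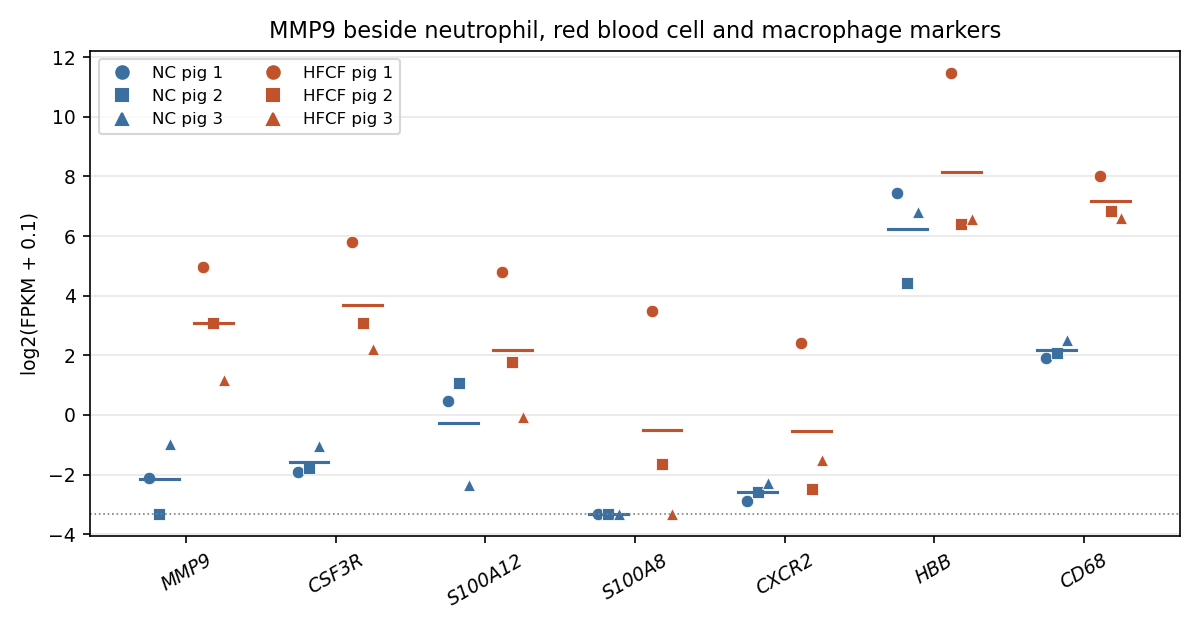
MMP9 beside 4 neutrophil markers, the red blood cell gene HBB and the macrophage gene CD68 in each pig, as log2(FPKM + 0.1) on the vertical axis. Each symbol is 1 pig, short bars are group means and the dotted line is the position of a value of 0. HFCF pig 1 is the highest library for MMP9 and for every marker drawn.

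The genes around MMP9 moved less. TIMP1, which encodes an inhibitor that binds the MMP9 proenzyme, rose from 150.5 ± 24.4 to 235.3 ± 28.2 FPKM (SD, n = 3 each; log2 fold change 0.65, adjusted p = 0.0326, limma), a call lost in 12 of 15 alternatives. TIMP3, an inhibitor bound to the matrix, fell from 323.9 ± 74.7 to 194.2 ± 29.6 FPKM (log2 fold change -0.72, adjusted p = 0.0475, limma), a call lost in 9 of 15. For every 100 FPKM of TIMP1 there were 0 to 0.267 FPKM of MMP9 in the NC pigs and 1.0 to 14.0 FPKM in the HFCF pigs. Of the 7 genes in the list of MMP9 partners and inhibitors, 1 was called higher and 1 lower, with a median log2 fold change of -0.40. The 28.6% called lay near the 28.9% of all tested genes.

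ATP6V0D2 (ENSSSCG00000006138) encodes the d2 subunit of the vacuolar proton pump, the form found in osteoclasts and some macrophages and known for a part in cell fusion. It stood at 9.22, 6.33 and 3.73 FPKM in HFCF pigs 1, 2 and 3. It was listed at 0 in NC pigs 1 and 2 and stood at 0.324 FPKM in NC pig 3. The log2 difference was 5.24, with 4.94 without HFCF pig 1, 2.69 with a pseudocount of 1 and 7.55 with one of 0.01. The widely expressed d1 form, ATP6V0D1, stood at 38.5 to 49.9 FPKM in the NC pigs and 44.3 to 48.5 FPKM in the HFCF pigs (log2 fold change 0.03, adjusted p = 0.886, limma), with a sign that turned under median-ratio scaling, quantile normalization and rescaling to TPM. For every 100 FPKM of d1 there were 20.8, 13.7 and 7.69 FPKM of d2 in HFCF pigs 1, 2 and 3 and at most 0.671 FPKM in the NC pigs. The d1 form therefore remained the more abundant transcript per length in each of the 6 pigs.

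The other subunits of the pump gave a wider view of the same complex. Of 24 listed genes 23 were found and 22 tested, of which 10 rose and 0 fell at an adjusted p under 0.05 in limma. Their median log2 fold change was 0.61 beside 0.32 for all tested genes, and 28.9% of all tested genes were called in either direction. The largest rises among them were in ATP6V1A, the catalytic subunit (1.23 to 2.11 FPKM in the NC pigs and 5.20 to 9.52 FPKM in the HFCF pigs; adjusted p = 0.00592, limma), and in ATP6V0B of the membrane ring (18.5 to 22.6 against 61.6 to 84.5 FPKM; adjusted p = 0.00124, limma). ATP6V1F had a log2 change of 1.31 (adjusted p = 0.00473, limma) and ATP6AP2, an accessory protein of pump assembly, one of 1.18 (adjusted p = 0.00191, limma). TCIRG1, the a3 subunit that directs the pump to the osteoclast surface, rose from 6.23 ± 1.44 to 13.1 ± 2.71 FPKM (SD, n = 3 each; adjusted p = 0.0172, limma), a call lost in 4 of 15 alternatives. ATP6V0A4, the a4 subunit of kidney, was listed at 0 in every library.

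**Figure D3:**
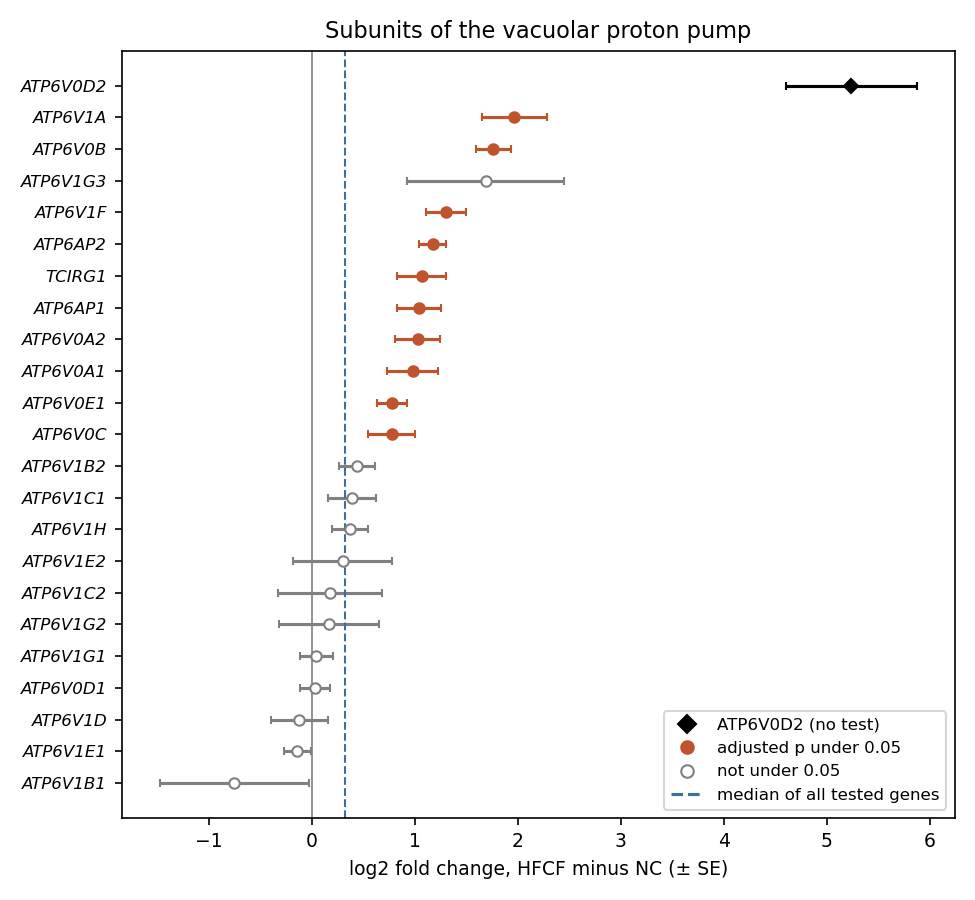
Log2 fold change between the HFCF and NC groups, with its standard error from limma, for ATP6V0D2 and the 22 other tested subunits and accessory genes of the vacuolar proton pump. Filled circles had an adjusted p under 0.05, open circles did not, the diamond is ATP6V0D2, and the dashed line is the median of all tested genes at 0.32. ATP6V0D2 lies at 5.24 and ATP6V0D1 at 0.03.

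DCSTAMP and OCSTAMP encode the membrane proteins required for osteoclast precursors to fuse. DCSTAMP (ENSSSCG00000006043) stood at 0.748, 0.396 and 0.0659 FPKM in HFCF pigs 1, 2 and 3, was listed at 0 in NC pigs 1 and 2 and stood at 0.0257 FPKM in NC pig 3. OCSTAMP (ENSSSCG00000007448) stood at 0.311, 0.118 and 0.0290 FPKM in HFCF pigs 1, 2 and 3 and at 0.0309, 0 and 0 FPKM in NC pigs 1, 2 and 3. Both were highest in HFCF pig 1, and in HFCF pig 3 both were close to the chow-fed pigs.

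In the NC pigs and in HFCF pig 3 these levels lay at 0 or close to the lowest value above 0 of each gene. After scaling by relative depth, DCSTAMP in HFCF pigs 1, 2 and 3 was 21.7, 11.7 and 1.995 times its lowest value above 0. OCSTAMP was 10.3 and 3.995 times its lowest value in HFCF pigs 1 and 2 and at that value in HFCF pig 3. The log2 difference of DCSTAMP was 1.93 and ranged from 0.45 to 4.22 over 12 alternatives, with pseudocounts of 1 and 0.01 at the ends. OCSTAMP had a mean of 0.0816 FPKM, under the filter, and its log2 difference ranged from 0.18 to 2.87 over 12 alternatives.

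Other genes of cell fusion were tested as a list of 13. Of these 6 rose and 1 fell, with a median log2 fold change of 1.12. The share called higher was 46.2%, beside 22.8% of all tested genes. The metalloprotease ADAM12 rose from 0.239 to 0.394 FPKM in the NC pigs to 1.15 to 2.36 FPKM in the HFCF pigs (adjusted p = 0.00744, limma), and SIRPA, the myeloid receptor for CD47, rose from 3.45 to 7.06 to 13.3 to 32.7 FPKM (adjusted p = 0.0103, limma). PIK3CB had a log2 change of 1.34 (adjusted p = 0.0153, limma; lost in 3 of 15 alternatives) and SYNCRIP one of 1.17 (adjusted p = 0.0103, limma). SH3PXD2A, a scaffold of podosomes, fell from 17.8 ± 1.80 to 10.5 ± 0.595 FPKM (SD, n = 3 each; adjusted p = 0.0103, limma).

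NFATC1 (ENSSSCG00000004856) stood at 9.50, 8.32 and 11.3 FPKM in NC pigs 1, 2 and 3 and at 8.15, 6.38 and 4.07 FPKM in HFCF pigs 1, 2 and 3. The group means were 9.71 ± 1.5 and 6.20 ± 2.05 FPKM (SD, n = 3 each), and the HFCF pig with the most NFATC1 lay just under the NC pig with the least. The log2 difference was -0.68, and over 12 alternatives it stayed negative, between -1.03 and -0.41. In the NC pigs NFATC1 was the most abundant of the 8 transcripts by far, and in the HFCF pigs its level did not differ from that of ATP6V0D2 (6.42 ± 2.75 FPKM, SD, n = 3) beyond the spread between pigs. Its level is the sum over 9 annotated transcripts, and the forms were not separated.

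Smooth muscle markers moved in the same direction as NFATC1. Of 7 such markers 5 fell and 0 rose in limma, while 6.16% of all tested genes were called lower. The summed level of these markers was 15169 to 21395 FPKM in the NC pigs and 7664 to 12406 FPKM in the HFCF pigs. The part of smooth muscle in the NFATC1 level was not tested.

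The relatives and regulators of NFATC1 showed no common direction. Of 10 tested genes in the list of NFAT and calcineurin genes 1 rose and 2 fell, with a median log2 fold change of -0.28. The 30% called lay near the 28.9% of all tested genes. RCAN2, which encodes a calcineurin inhibitor, fell from 184.0 ± 58.3 to 36.6 ± 2.95 FPKM (SD, n = 3 each; log2 fold change -2.28, standard error 0.25, limma). NFAT5, the member of the family that responds to osmotic stress, fell from 3.59 ± 0.619 to 0.849 ± 0.466 FPKM (adjusted p = 0.00831, limma). NFATC3 had a log2 fold change of 0.67 with an adjusted p of 0.0498 in limma, and its call was lost in 12 of 15 alternatives. NFATC2 stood at 1.87 to 4.21 FPKM in the NC pigs and 1.38 to 2.49 FPKM in the HFCF pigs (adjusted p = 0.466, limma). For every 100 FPKM of NFATC3 there were 269.8 to 345.1 FPKM of NFATC1 in the NC pigs and 99.7 to 134.0 FPKM in the HFCF pigs.

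Of the receptors, CALCR (ENSSSCG00000015320), the calcitonin receptor through which the hormone restrains osteoclasts, stood at 1.36, 0.744 and 0.998 FPKM in HFCF pigs 1, 2 and 3. It was listed at 0 in NC pigs 1 and 2 and stood at 0.0486 FPKM in NC pig 3. The HFCF values were more even than those of the other genes of the set, with 1.83 times between the highest and the lowest pig. After scaling by relative depth they were 20.95, 11.7 and 15.99 times the NC pig 3 value. The log2 difference was 3.28, and it ranged from 0.99 to 5.81 over 12 alternatives, with the pseudocounts at the ends.

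Its nearest relative CALCRL, the receptor of adrenomedullin and calcitonin gene-related peptide, rose from 0.484 ± 0.184 to 3.0 ± 0.776 FPKM (SD, n = 3 each; log2 fold change 2.43, adjusted p = 0.00369, limma). For every 100 FPKM of CALCRL there were 27.1 to 41.9 FPKM of CALCR in the HFCF pigs, 9.70 FPKM in NC pig 3 and 0 in the other NC pigs. CALCRL was the 1 gene called among 6 tested in the list of calcitonin receptor relatives, which is 16.7% beside 28.9% of all tested genes. The accessory protein gene RAMP1 stood at 113.2 to 151.8 FPKM in the NC pigs and 52.2 to 204.4 FPKM in the HFCF pigs. The peptide hormone gene IAPP was listed at 0 in every library.

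OSCAR (ENSSSCG00000003259), a collagen receptor that signals through the adaptor FCER1G, stood at 0.600, 0.293 and 0.391 FPKM in HFCF pigs 1, 2 and 3 and at 0.0489, 0.0379 and 0.0550 FPKM in NC pigs 1, 2 and 3. The groups did not overlap, and both groups stayed under 1 FPKM. The log2 difference was 1.80, with 1.58 without HFCF pig 1, 0.44 with a pseudocount of 1 and 2.89 with one of 0.01.

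FCER1G stands in a list of ITAM genes that also holds other receptors, such as TREM2, and other adaptors and kinases. Of 12 genes tested in this list 9 rose and 0 fell, with a median log2 fold change of 3.47. The share called higher was 75%, beside 22.8% of all tested genes. FCER1G rose from 5.63 to 7.57 FPKM in the NC pigs to 77.9 to 232.7 FPKM in the HFCF pigs (log2 fold change 4.12, adjusted p = 0.00126, limma). TREM2, a lipid-sensing receptor of macrophages and osteoclasts, rose from 0.150 to 0.340 FPKM to 17.3 to 40.6 FPKM (log2 fold change 6.35, standard error 0.37, limma). The kinase gene BTK rose from 0.486 ± 0.0657 to 10.3 ± 5.0 FPKM, and the adaptor gene LCP2 from 0.266 ± 0.0779 to 5.77 ± 4.17 FPKM (SD, n = 3 each). Macrophages use each of these genes too.

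Within the HFCF group the 8 transcripts spanned a wide range per length. ACP5 came first with 87.7 FPKM, then MMP9 with 13.9 ± 15.2, ATP6V0D2 with 6.42 and NFATC1 with 6.20, then CALCR with 1.03 ± 0.31, OSCAR with 0.428 ± 0.156, DCSTAMP with 0.403 ± 0.341 and OCSTAMP with 0.153 ± 0.144 FPKM (SD, n = 3). The neighbours MMP9, ATP6V0D2 and NFATC1 did not differ beyond the spread between pigs, nor did OSCAR, DCSTAMP and OCSTAMP. HFCF pig 1 was the highest of the HFCF pigs in 8 of 8 genes, as it was in 42.0% of all tested genes. NC pig 3 was the highest NC pig in 7 of 8, against 40.3% of all tested genes, and OCSTAMP was the exception. This pig also had the greatest relative depth, 1.37. In DCSTAMP, CALCR and ATP6V0D2 its value was the lowest above 0 of the gene, with 0 in NC pigs 1 and 2. The part of depth in this order was not tested. ATP6V0D2 and CALCR were higher in every HFCF pig, and the resorption genes SNX10, OSTM1 and TCIRG1 were called higher. By contrast NFATC1 was lower, DCSTAMP and OCSTAMP had the lowest HFCF means of the set, and neither RANK nor the osteoclast integrin was called. As these genes went both ways, the transcripts are named here by gene and no cell type is given to them.

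The profile of ACP5 over the 6 pigs was compared with that of every tested gene by the root mean square difference of log2(FPKM + 0.1), each gene centred on its own mean. The 5 nearest genes with a symbol and a mean of at least 1 FPKM were the ubiquitin ligase gene RNF128 (0.38), the enamel matrix gene AMBN (0.48), the fructose transporter gene SLC2A5 (0.64), TREM2 (0.69) and SUSD3 (0.70). Among the other genes of the set, ATP6V0D2 was the nearest at 0.97, followed by MMP9 at 1.31, CALCR at 2.05, DCSTAMP at 2.70, OSCAR at 2.79 and NFATC1 at 3.97. NC pig 3 was the highest NC pig in RNF128, AMBN, SLC2A5, TREM2 and SUSD3, as it was in ACP5. The choice of these genes by likeness over the same 6 pigs favours such a shared order. The likeness is dominated by the size of the difference between the groups, and it was ranked with no test.

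Macrophage markers rose with the set. Of 12 markers 11 were called higher and none lower in limma, which is 91.7% higher beside 22.8% of all tested genes. The markers summed to 48.5 to 60.2 FPKM in the NC pigs and 1824, 797.1 and 704.5 FPKM in HFCF pigs 1, 2 and 3. The exception was MARCO, which was listed at 0 in HFCF pig 3. CD68 rose from 3.65 to 5.67 FPKM to 98.0 to 261.0 FPKM (log2 fold change 4.99).

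Set against 100 FPKM of the summed macrophage markers, ACP5 stood at 0.325, 0.679 and 2.71 FPKM in NC pigs 1, 2 and 3 and at 7.3, 10.1 and 7.0 FPKM in HFCF pigs 1, 2 and 3, so the groups still did not overlap. On the same scale HFCF pig 1 no longer stood above the other HFCF pigs. MMP9, ATP6V0D2, CALCR, DCSTAMP and OCSTAMP overlapped between the groups on this scale, and each was listed at 0 in at least 1 NC pig. OSCAR had the opposite order, with 0.0781 to 0.0956 FPKM in the NC pigs and 0.0329 to 0.0555 FPKM in the HFCF pigs, and NFATC1 stood at 17.2 to 18.8 FPKM in the NC pigs and 0.447 to 0.8 FPKM in the HFCF pigs. As a macrophage gene on the same scale, TREM2 stood at 0.293 to 0.565 FPKM in the NC pigs and 2.23 to 2.97 FPKM in the HFCF pigs. CD68 (7.13 to 9.42 against 13.9 to 14.3 FPKM) and SPP1 (6.19 to 28.6 against 34.9 to 45.8 FPKM) were also higher in every HFCF pig. CSF1R had the opposite order, with 14.1 to 20.2 FPKM in the NC pigs and 4.89 to 6.87 FPKM in the HFCF pigs. So had the cathepsin gene CTSB, with 169.2 to 210.6 against 15.6 to 21.5 FPKM. CD68 and CSF1R are themselves among the 12 summed markers. The part of macrophages in the differences of the set was not tested.

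**Figure D4:**
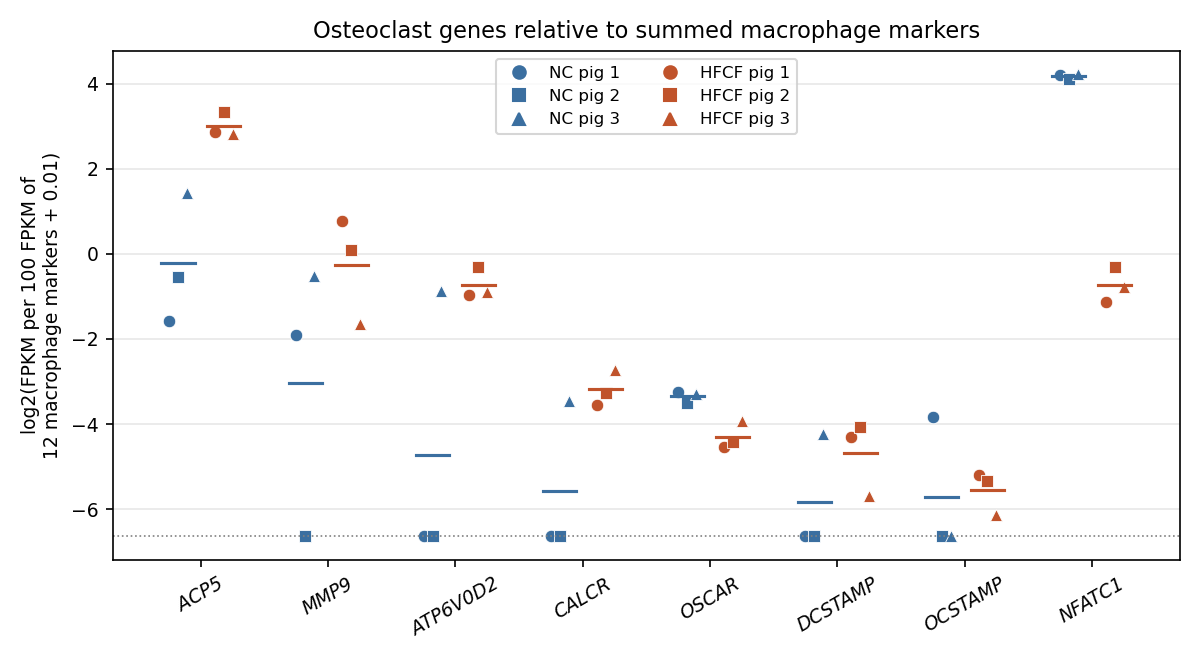
Each of the 8 osteoclast genes per 100 FPKM of the 12 summed macrophage markers in each pig, as the log2 of that value plus 0.01 on the vertical axis. Each symbol is 1 pig, short bars are group means and the dotted line is the position of a value of 0. ACP5 is the gene of the set that stays higher in every HFCF pig, while OSCAR and NFATC1 lie lower.

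The signals that lead to osteoclasts were read from the remaining lists. In all, 152 genes of the lists outside the set were found and 146 were tested. Of these 51 rose and 8 fell at an adjusted p under 0.05 in limma, which is 34.9% higher beside 22.8% of all tested genes, and 6.16% of all tested genes were called lower. The split was 37 higher and 20 lower after median-ratio scaling, 34 and 15 after quantile normalization and 41 and 14 after rescaling to TPM. The number called was 59, and it was 36 without NC pig 1 and 51 without HFCF pig 1. The median log2 fold change of these genes was 0.47, which is 0.15 above that of all tested genes.

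The CSF1 axis and the lineage factors had the next highest median after the ITAM genes, a log2 fold change of 1.91. Of 10 genes 6 were called higher and 0 lower, which is 60% higher beside 22.8% of all tested genes. CSF1R, the receptor that keeps macrophages and osteoclast precursors alive, rose from 9.49 ± 0.916 to 60.4 ± 29.3 FPKM (SD, n = 3 each; adjusted p = 0.00257, limma). SPI1, which encodes the myeloid factor PU.1, rose from 2.68 ± 0.633 to 73.2 ± 48.0 FPKM (log2 fold change 4.56, adjusted p = 0.00117, limma), and CEBPA from 1.48 ± 0.932 to 21.0 ± 13.8 FPKM (adjusted p = 0.00647, limma). MITF, a factor that acts on ACP5 and other osteoclast genes, rose from 2.15 ± 0.814 to 5.83 ± 2.21 FPKM (log2 fold change 1.39, adjusted p = 0.0296, limma), a call lost in 8 of 15 alternatives. Its relative TFEC had a log2 change of 3.15 (adjusted p = 0.00257, limma) and PRDM1, a repressor of the brakes on osteoclast formation, one of 2.43 (adjusted p = 0.0281, limma), both under 1 FPKM on average. TFEC reached the filter of 0.1 FPKM through its HFCF values, with an NC mean of 0.0281 FPKM.

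The RANK axis moved little as a whole. Of 18 tested genes 2 rose and 2 fell, with a median log2 fold change of 0.07, below the 0.32 of all tested genes. That made 22.2% called, beside 28.9% of all tested genes. TNFSF11, which encodes RANK ligand, had 0.133, 0.08 and 0.0951 FPKM in HFCF pigs 1, 2 and 3, was listed at 0 in NC pigs 1 and 3 and had 0.0155 FPKM in NC pig 2. It was under the filter and was not tested. TNFRSF11A, the gene of its receptor RANK, stood at 2.80, 1.60 and 1.25 FPKM in NC pigs 1, 2 and 3 and at 4.15, 2.89 and 1.82 FPKM in HFCF pigs 1, 2 and 3. The groups overlapped (log2 fold change 0.62, adjusted p = 0.27, limma).

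TNFRSF11B encodes osteoprotegerin, the decoy receptor that blocks RANK ligand. Among the tested genes of this axis it had the largest log2 fold change. By the ratio of group means it rose 9.97 times, less than the untested TNFSF11 at 19.9 times. It stood at 0.953, 1.15 and 2.45 FPKM in NC pigs 1, 2 and 3 and at 13.5, 21.8 and 10.0 FPKM in HFCF pigs 1, 2 and 3 (log2 fold change 3.27, standard error 0.41, adjusted p = 0.00272, limma). The call held in 15 of 15 alternatives. In contrast to the 8 genes of the set, HFCF pig 2 was its highest library. The kinase gene MAP3K7 had a log2 change of 0.98 (adjusted p = 0.018, limma), while the adaptor gene GAB2 fell from 15.8 ± 3.33 to 6.775 ± 1.37 FPKM (adjusted p = 0.0097, limma) and the AP-1 gene FOSL2 from 96.3 ± 8.44 to 49.0 ± 18.6 FPKM (adjusted p = 0.024, limma). The calls of MAP3K7 and FOSL2 were lost in 7 and 5 of 15 alternatives.

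The list of repressors of osteoclast formation held 12 tested genes, of which 4 rose and 1 fell. The share called higher was 33.3%, beside 22.8% of all tested genes. Its median log2 fold change was 0.09, beside 0.32 for all tested genes. The phosphatase genes PTPN6 and INPP5D, which dampen ITAM and CSF1R signals in blood cells, had log2 fold changes of 4.35 (adjusted p = 0.00115, limma) and 2.57 (adjusted p = 0.00252, limma). RBPJ had a log2 change of 2.03 (adjusted p = 0.0162, limma) and BCL6 one of 0.88 (adjusted p = 0.0393, limma), calls lost in 2 and 11 of 15 alternatives. NFKBIA had a log2 change of -0.83 (adjusted p = 0.0482, limma).

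**Figure D5:**
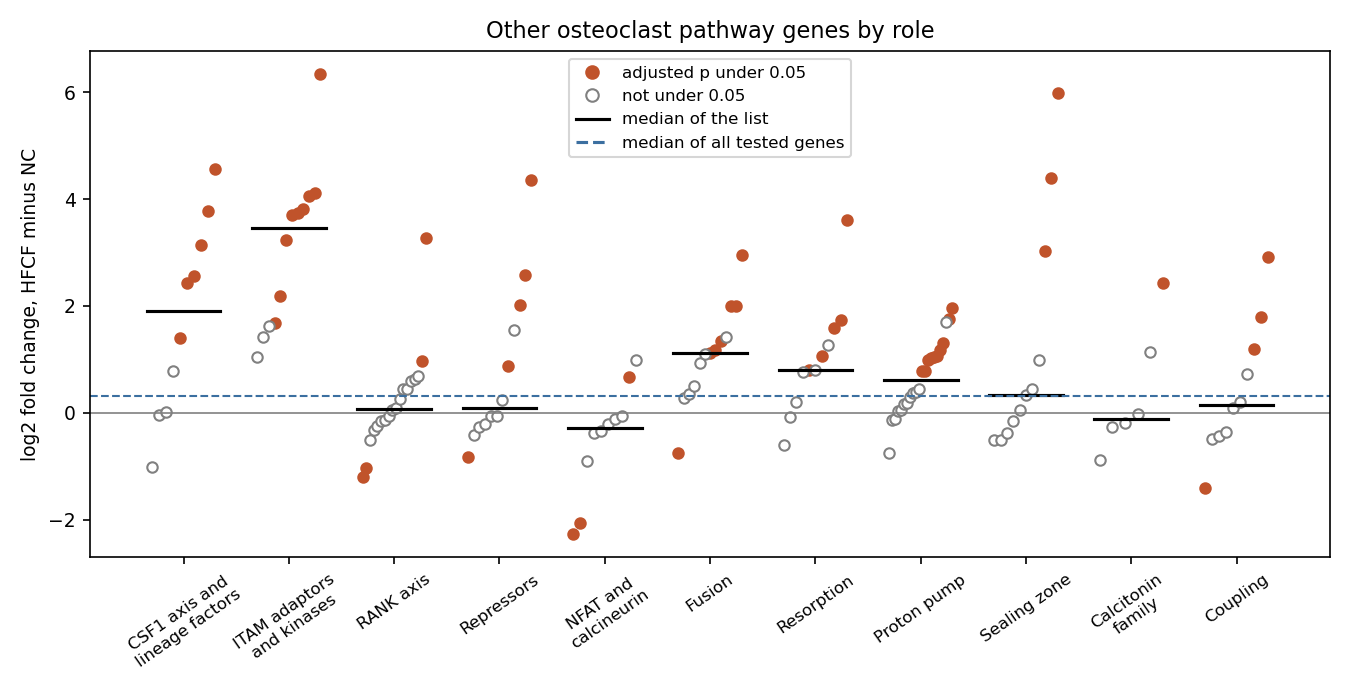
Log2 fold change between the HFCF and NC groups for the tested genes of 11 lists of osteoclast pathway genes, the 8 genes of the set left out. Filled circles had an adjusted p under 0.05 in limma, open circles did not, black bars are list medians, and the dashed line is the median of all tested genes at 0.32. The ITAM list has the highest median at 3.47, and the RANK axis lies at 0.07.

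Of 11 genes in the list for bone resorption 5 rose and 0 fell, with a median log2 fold change of 0.81. TCIRG1, counted above with the proton pump, is among those that rose. The share called higher was 45.5%, beside 22.8% of all tested genes. SNX10, a sorting nexin needed for acid secretion by osteoclasts, rose from 1.08 ± 0.276 to 14.3 ± 4.16 FPKM (SD, n = 3 each; log2 fold change 3.61, standard error 0.29, limma). OSTM1, the partner of the chloride transporter CLCN7, rose from 3.48 ± 0.626 to 10.7 ± 2.20 FPKM (adjusted p = 0.0036, limma), and CLCN7 itself from 4.96 ± 0.392 to 8.90 ± 2.62 FPKM (adjusted p = 0.0439, limma), with a call lost in 11 of 15 alternatives. The proton exchanger gene SLC9B2 had a log2 change of 1.73 (adjusted p = 0.0246, limma), a call lost in 6 of 15 alternatives. CA2, whose product makes the protons that the pump moves, stood at 0 to 0.0717 FPKM in the NC pigs and 0.115 to 0.244 FPKM in the HFCF pigs (adjusted p = 0.0666, limma). CA2 too reached the filter through its HFCF values. CTSK was not analysed here.

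In the list for the sealing zone, by which the osteoclast attaches to bone, 3 of 11 genes rose and 0 fell. The share called higher was 27.3%, near the 22.8% of all tested genes. Its median log2 fold change was 0.34, beside 0.32 for all tested genes. The osteoclast integrin gene ITGB3 stood at 2.84 to 5.73 FPKM in the NC pigs and 3.12 to 10.4 FPKM in the HFCF pigs (log2 fold change 0.34, adjusted p = 0.61, limma), and its sign turned with median-ratio scaling, with quantile normalization and without HFCF pig 1. The genes that rose were SPP1, which encodes the integrin ligand osteopontin (log2 fold change 5.98, adjusted p = 0.00179, limma), the actin regulator WAS (4.4, adjusted p = 0.000774, limma) and the exchange factor VAV3 (3.03, adjusted p = 0.00387, limma). Of 10 genes for signals between osteoclasts and osteoblasts 3 rose and 1 fell, which is 30% higher beside 22.8% of all tested genes. Their median log2 fold change was 0.15, below the 0.32 of all tested genes. WNT10B was among those that rose. The complement gene C3 had a log2 change of 2.92 (adjusted p = 0.0172, limma) and the matrix gene CTHRC1 one of 1.80 (adjusted p = 0.0277, limma), with calls lost in 2 and 9 of 15 alternatives, while SLIT3 fell from 298.6 ± 45.4 to 111.3 ± 10.8 FPKM (adjusted p = 0.00242, limma).

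The deposited annotation places 113 genes in the KEGG pathway of osteoclast differentiation, among them ACP5, NFATC1, CALCR and OSCAR. Of the other 109 genes 103 were tested, and 34 rose and 7 fell at an adjusted p under 0.05 in limma, with a median log2 fold change of 0.62 beside 0.32 for all tested genes. The share called higher was 33.0%, beside 22.8% of all tested genes. The lists above share 41 of these 109 genes, so the counts are not independent. The split was 25 higher and 17 lower after median-ratio scaling, 23 and 13 after quantile normalization and 25 and 13 after rescaling to TPM, and the number called was 41, against 22 without NC pig 1 and 33 without HFCF pig 1.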

How the data were processed

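RNA from the abdominal aorta of 3 NC and 3 HFCF pigs was sequenced, 1 library for each. HISAT2 was the aligner, and the authors deposited StringTie FPKM values for 30477 genes. The submitters' processing notes also name cutadapt 1.9 and FastQC. The methods name an earlier pig build than the reference tables at hand, so no coordinates are given. Values of 0.0001 were read as 0. Read totals are not given in the sources used here, so the precision of a value was taken from the spread between pigs, and the modes of the ratios of values under 0.3 FPKM in genes with 1 transcript gave relative depths.

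Genes whose mean reached 0.1 FPKM were fitted on the log2(FPKM + 0.1) scale with limma 3.58.1 in R 4.3.3 (no covariate, trended eBayes, two-sided, Benjamini-Hochberg adjustment over all tested genes), which was tested on simulated data. A gene was called at an adjusted p under 0.05. Gene symbols came from the table, and for 10 listed genes from their gene IDs, and 225 of 237 listed names were found (a missing one, SLP76, is a second name of LCP2, which was found). Sequences were not used here.

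The 8 genes and the gene lists were chosen with earlier results of these data known. The text names 13 pathway genes in any case, up to 4 further called genes of each list with the largest change and a mean of at least 1 FPKM, and the 5 genes most like ACP5. SH3PXD2A, NFKBIA, TFEC, PRDM1, WNT10B, CA2, CTSB, RAMP1, IAPP, ATP6V0A4 and the marker genes given beside a count were named after their values had been seen. Alternatives were pseudocounts of 1 and 0.01, other filters, 3 scalings, no trend, a replicate block, each pig left out and the thresholds of the study (an unadjusted p under 0.05 with a ratio over 2 or under 0.5).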

Additional observations from a re-analysis of the deposited data

How the results depend on the processing

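The number of genes called was 4453, and it was 2772 with a replicate block and 2421 to 3596 with each pig left out, lowest without NC pig 1 and 2883 without NC pig 2. Higher genes made up 78.7% of the calls, against 50.7% with median-ratio scaling, 49.5% with quantile normalization and 59.1% as TPM. With each pig left out, 36 to 59 of the pathway genes and 22 to 40 of the KEGG genes were called. The median log2 difference of the 8 genes was 0.72 with a pseudocount of 1, 5.02 with a pseudocount of 0.01 and 2.33 to 2.94 with each pig left out. ITGB3 reversed to -0.0087 after median-ratio scaling, to -0.047 after quantile normalization and to -0.12 without HFCF pig 1, within -0.12 to 0.74 as each pig was left out. ATP6V0D1 reversed to -0.32, -0.059 and -0.23 under the 3 scalings, to -0.083 without NC pig 2 and to -0.00032 without HFCF pig 3, and was 0.10 without NC pig 1, the highest with a pig left out. Of 51 named and tested genes 34 kept their side of the threshold and their direction in every alternative run, and 15 lost their call at least once. Deviations of pigs with the same number correlated at 0.021, -0.079 and -0.072, and no pig correlated best with its own number. No pairing by number was seen, though with 3 pigs in each group these values cannot exclude it. With the block 43 pathway genes and 31 KEGG genes were called. Depth limits DCSTAMP, OCSTAMP, CALCR, ATP6V0D2, OSCAR and TNFSF11, which lie at 0 or near their lowest value in the NC pigs.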

Other observations

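Markers of the cells that build bone and cartilage were measured beside the osteoclast genes. Of 9 osteoblast markers 8 were tested, and 2 rose and 0 fell in limma. The 25% called higher lay near the 22.8% of all tested genes. RUNX2, the transcription factor that commits cells to the osteoblast lineage, stood at 0.0661 to 0.113 FPKM in the NC pigs and 0.584 to 1.23 FPKM in the HFCF pigs (log2 fold change 2.30, adjusted p = 0.00583, limma). RUNX2 reached the filter of 0.1 FPKM through its HFCF values, with an NC mean of 0.0886 FPKM. DMP1, a matrix gene of osteocytes, rose by 0.79 on the log2 scale (adjusted p = 0.0176, limma). IBSP, the bone sialoprotein gene, was listed at 0 in every library. Of 7 chondrocyte markers 3 were tested and 0 were called in limma (1 at an unadjusted p under 0.05), and COL10A1 was listed at 0 in every library. COMP, a cartilage matrix gene also made by vascular smooth muscle, stood at 0.0357, 29.3 and 145.5 FPKM in HFCF pigs 1, 2 and 3, the reverse of the order of ACP5 in these pigs.

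Of the other cell types, 2 of 7 T cell markers rose in limma, CD2 (adjusted p = 0.0153) and CD8A (adjusted p = 0.0494). That made 28.6% called higher, beside 22.8% of all tested genes. The T cell markers summed to 1.11 to 1.57 FPKM in the NC pigs and 3.88 to 16.9 FPKM in the HFCF pigs, highest in HFCF pig 1. In limma none of 5 dendritic cell markers, 6 endothelial markers or 4 tested red blood cell markers was called, and 1, 2 and 0 of them had an unadjusted p under 0.05. The endothelial markers summed to 99.1 to 209.0 FPKM in the NC pigs and 87.4 to 230.5 FPKM in the HFCF pigs.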
